A study of Mus musculus with 2 samples.

Results

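The genes described here encode the proteins of the nuclear pore complex, the channel through the nuclear envelope. They were taken from a list of 30 gene symbols, of which 29 are in the GENCODE M21 annotation, among 21938 protein-coding genes. The symbol Nup58 is not in that annotation, which lists the gene as Nupl1. Each gene was described by the accessible regions within 1000 bp of any of its annotated starts, called promoter regions below. The measures were the rank of the region's height, its width and the footprints in it. The list was drawn up with these values already known, so openness, height, width and footprints are given as a description and no test was made on them.

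Open chromatin was mapped by DNase-seq in the hippocampus of male mice of the strain B6CASTF1/J, 10 days old. The tissue type label of both samples reads "layer of hippocampus" and names no layer. The enzyme DNase I cuts DNA free of nucleosomes, and short protected stretches inside such open DNA are called footprints. There was 1 group of 2 biological replicates, each a tissue sample labelled as coming from 3 males, with no treatment and no second genotype. Both samples carry the same donor label, and the sources do not say whether any animal gave tissue to both. The spread between the samples may therefore be technical. The mice are hybrids, and the sequences printed below are the mm10 reference, which is that of C57BL/6J. The tissue holds many cell types, so more open cells and more cutting per cell cannot be told apart.

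Pore proteins, or nucleoporins, are grouped by their place in the complex. The outer ring, built from the Y complex, and the inner ring form the scaffold on the envelope, and membrane proteins anchor it. The central channel holds proteins rich in phenylalanine-glycine repeats, which let transport receptors through. Filaments reach into the cytoplasm on one face and a basket into the nucleus on the other. Every cell with a nucleus needs the complex, and Y-complex proteins also act at kinetochores in dividing cells.

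The 4 members with the highest promoter regions by mean rank over both libraries were Nup153, Nup107, Nup50 and Nup133. Nup153 and Nup50 belong to the basket, Nup107 and Nup133 to the Y complex. Their regions are printed here because they carry the highest values. Pom121, a membrane protein with the lowest region among the open members, is printed for contrast. Each sequence runs 5′ to 3′ on the strand of its gene, and capitals mark bases inside footprints of both libraries. For Nup153, Nup133 and Pom121 only the stretch before the gene's start is shown. The places in mm10 are chr13:46727941-46728140 for Nup153 (minus strand), chr10:117792801-117792940 for Nup107 (minus strand) and chr15:84923081-84923320 for Nup50 (plus strand). For Nup133 the place is chr8:123949266-123949440 (minus strand) and for Pom121 chr5:135394547-135394780 (minus strand). All lie upstream of the first exon of their gene, and the far end of the Nup133 stretch overlaps first exons of the antisense RNA Gm45890.

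Nup153: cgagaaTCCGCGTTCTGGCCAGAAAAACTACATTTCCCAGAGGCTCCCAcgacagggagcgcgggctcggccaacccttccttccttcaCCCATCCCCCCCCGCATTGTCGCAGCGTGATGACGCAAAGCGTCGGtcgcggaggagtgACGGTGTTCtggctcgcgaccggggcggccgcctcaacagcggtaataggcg
Nup107: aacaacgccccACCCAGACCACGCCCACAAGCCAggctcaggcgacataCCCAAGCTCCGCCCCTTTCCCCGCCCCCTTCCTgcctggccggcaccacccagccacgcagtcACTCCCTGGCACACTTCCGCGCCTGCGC
Nup50: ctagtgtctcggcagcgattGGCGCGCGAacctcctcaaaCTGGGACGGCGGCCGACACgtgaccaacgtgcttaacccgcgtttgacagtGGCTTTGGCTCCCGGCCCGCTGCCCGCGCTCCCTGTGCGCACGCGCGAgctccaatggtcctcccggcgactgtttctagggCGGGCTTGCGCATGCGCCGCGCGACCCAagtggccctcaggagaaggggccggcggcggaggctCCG
Nup133: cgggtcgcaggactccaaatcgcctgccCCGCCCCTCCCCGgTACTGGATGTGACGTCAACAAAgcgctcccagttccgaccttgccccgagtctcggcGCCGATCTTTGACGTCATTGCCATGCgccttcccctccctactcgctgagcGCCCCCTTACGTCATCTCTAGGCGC
Pom121: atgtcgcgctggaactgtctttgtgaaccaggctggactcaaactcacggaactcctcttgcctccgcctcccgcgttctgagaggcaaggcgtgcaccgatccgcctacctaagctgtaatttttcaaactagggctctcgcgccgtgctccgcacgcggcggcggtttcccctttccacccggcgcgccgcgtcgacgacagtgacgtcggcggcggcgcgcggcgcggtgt

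In these stretches the footprints of both libraries covered 98 of 200 bases (49.0%) at Nup153, 84 of 140 (60%) at Nup107, 107 of 240 (44.6%) at Nup50 and 86 of 175 (49.1%) at Nup133. In the Pom121 stretch they shared 0 of 234 bases. Each of the 27 promoter regions found, and the Nup160 region described below, matched the assembly at 1 place only, at 90% identity over 90% of its length. Copies of a shorter part of a region were not counted, so repeats inside a region, Pom121 included, were not looked for.

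Nearly all nuclear pore genes were open. A promoter region was present in 27 of the 29 genes in replicate 1, against 59.6% of protein-coding genes. It was present in 27 of 29 in replicate 2, against 64.0%. The same 27 were open in both libraries, as were 59.3% of protein-coding genes. The 2 exceptions were Nup160, a Y-complex scaffold protein, and Nup210l, a relative of the membrane protein Nup210. Neither had a region within 1000 bp of a start in the shorter or the longer region list of either library. Nupl1, the channel protein whose symbol is now Nup58, had a promoter region on chromosome 14 with a height of 4.92 in replicate 1 and 4.87 in replicate 2. With it, 28 of 30 genes would be open.

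The regions were also high among promoters. Height is the authors' signal value for a region, and each gene was represented by its highest promoter region. The median height over the 27 open members was 4.46 in replicate 1 (range 1.36 to 12.1) and 5.05 in replicate 2 (2.17 to 15.3). All promoter regions had medians of 1.40 and 1.41 over 23648 and 29133 regions. A fairer comparison takes 1 region per gene, and the highest regions of all open protein-coding genes had medians of 2.59 and 3.14. As a percentile among the promoter regions of its library, where 100 is the highest, the median member stood at 89.4 and 90.3, a mean of 89.8 ± 0.633 (SD, n = 2). The median open protein-coding gene stood at 72.6 and 75.6. Above the 75th percentile were 21 and 23 of the 27 members, against 46.2% and 51.0% of open protein-coding genes. Above the 90th were 12 and 14, against 20% and 22.7%.

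**Figure D1:**
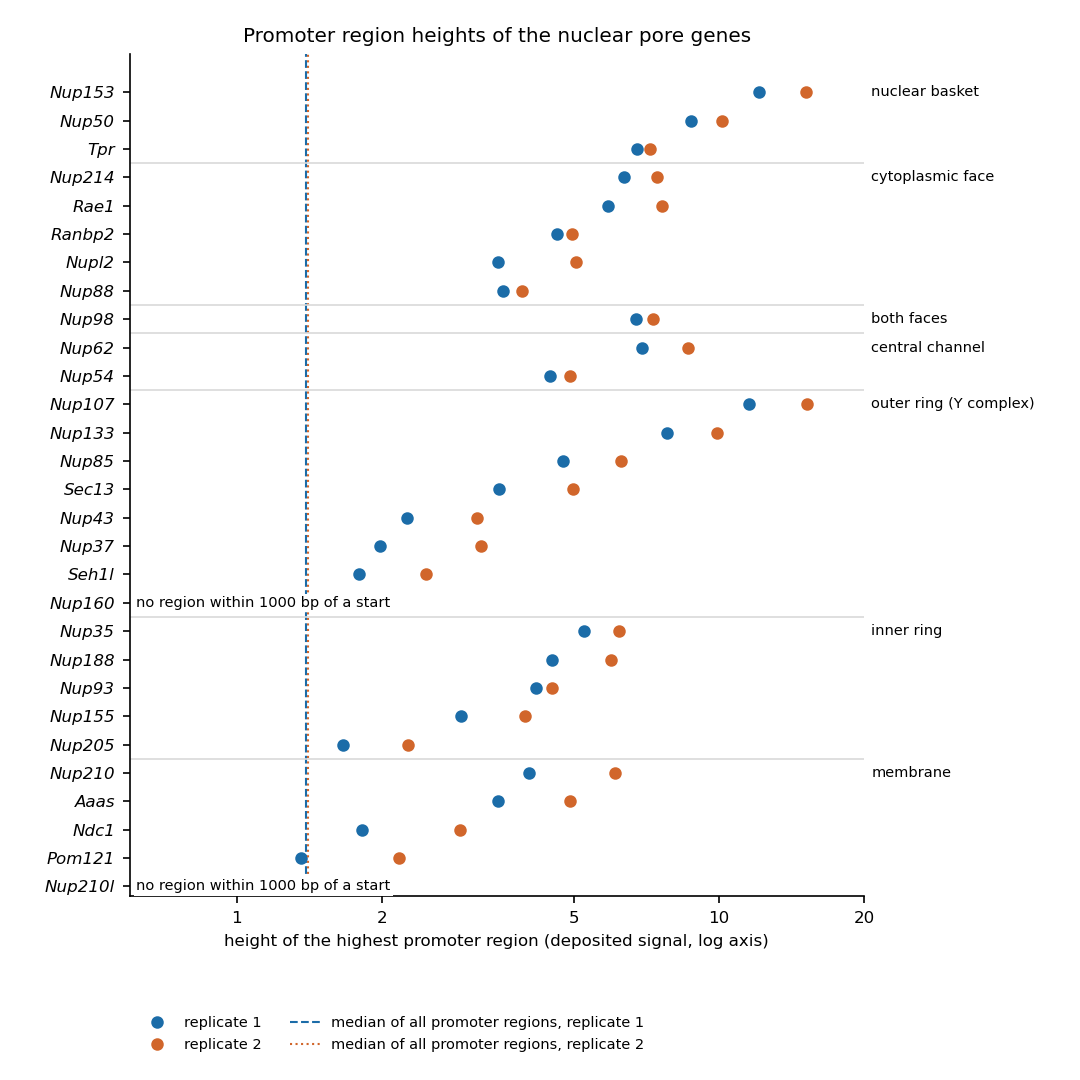
Height of the highest promoter region (deposited signal, log axis) of each of the 29 nuclear pore genes, grouped by place in the pore. Blue points are replicate 1 and orange points replicate 2, and the vertical lines are the medians of all promoter regions. In every open gene replicate 2 is the higher, and only Pom121 in replicate 1 lies left of the lines.

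Heights in the 2 libraries differed in scale. The height in replicate 2 exceeded that in replicate 1 in all 27 open members, with a median log2 ratio of 0.40. The same held for 87.2% of open protein-coding genes, whose median log2 ratio was 0.32, so heights were compared within a library. Where a mean height is given with its SD, the SD includes this difference in scale. The percentile of a member differed between libraries by a median of 2.56 points and by 15.6 at most, at Pom121. Percentiles end at 100, so high regions have less room to differ. The highest regions of the 2 libraries overlapped in 27 of 27 members, and in 12441 of the 13008 protein-coding genes open in both.

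All 3 basket genes had regions above the 90th percentile of promoters in both libraries, against 20% and 22.7% of open protein-coding genes. Nup153, which tethers the basket to the ring and binds chromatin, had heights of 12.1 and 15.1 in replicates 1 and 2 (mean 13.6 ± 2.14, SD, n = 2). These were ranks 16 and 10 among all promoter regions. Nup50, a mobile basket protein that helps release imported cargo, had 8.76 and 10.2, which were ranks 136 and 106. Tpr, the coiled-coil filament of the basket, had 6.75 and 7.19, and its percentiles were 97.5 and 97.4. Its region was 400 and 440 bp wide and held 9 and 8 footprints. The order Nup153, Nup50, Tpr was the same in both libraries.

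The outer ring spanned the widest range. Of its 8 genes, 7 were open, at percentiles of 59.9 to 99.9 in replicate 1 and 68.2 to 99.97 in replicate 2. Nup107, at the stem of the Y, had heights of 11.6 and 15.3 (mean 13.4 ± 2.61, SD, n = 2), which were ranks 22 and 9. Its order against Nup153 changed between the libraries, so the top 2 could not be ranked. Nup133, at the tip of the stem, had 7.79 and 9.92 (ranks 262 and 125). Nup85, in an arm of the Y, had 4.75 and 6.27. Sec13, which also builds the coat of vesicles leaving the endoplasmic reticulum, had 3.51 and 4.98. The peripheral subunits lay lower: Nup43 had 2.26 and 3.16, and Nup37 had 1.98 and 3.22. Seh1l, which also belongs to a complex of the nutrient-sensing pathway, had 1.80 and 2.47. Seh1l was below Nup43 and Nup37 in both libraries, and the order of Nup43 and Nup37 changed between them. Seh1l had wide regions of 460 and 760 bp, with 4 and 11 footprints.

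The 5 inner ring genes were open in both libraries, at percentiles from 56.9 to 93.3 and from 65.8 to 95.2. Nup35, which contacts the membrane, had the highest region, with heights of 5.24 and 6.21. Nup188, a large scaffold protein, had 4.51 and 5.98, and Nup93, the linker of the inner ring, 4.17 and 4.51. Nup155 had 2.92 and 3.96. Nup205, the paralogue of Nup188, had the lowest, 1.66 and 2.27. Its region was called 440 bp wide in replicate 1 and 60 bp in replicate 2. The called width of Nup205 thus differed far more than its height. The number of bases around its start with a cut-rate false discovery rate of 0.001 or lower was similar, 900 and 923 of 1001.

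In the central channel, Nup62 had heights of 6.92 and 8.63, and Nup54 had 4.46 and 4.92. Nup62 had 6 and 7 separate regions within 1000 bp of its starts, the most among the members. On the cytoplasmic face all 5 genes were open, at percentiles from 82.3 to 96.7 and from 82.7 to 98.1. Nup214, where export receptors dock, had 6.36 and 7.45, and Rae1, which binds mRNA export complexes, had 5.88 and 7.64. Ranbp2, the giant protein of the cytoplasmic filaments, had 4.61 and 4.95. Nupl2 had 3.48 and 5.05, and Nup88, the partner of Nup214, had 3.57 and 3.90. In each library Nup214 and Rae1 lay above the other 3. Nup98, which sits on both faces and is made as a precursor with Nup96, had 6.74 and 7.29.

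The membrane group was the lowest. Nup210, with a large domain in the lumen of the envelope, had heights of 4.04 and 6.10. Aaas (aladin), which Ndc1 anchors, had 3.49 and 4.92. Ndc1 had 1.82 and 2.90, in regions 500 and 440 bp wide. Pom121 had 1.36 and 2.17 (mean 1.77 ± 0.577, SD, n = 2), at percentiles 48.9 and 64.5. It was the 1 member below the 50th percentile, in replicate 1 only. Its region held 1 footprint in replicate 1 and 4 in replicate 2. Pom121 and Nup205 were thus the lowest open members, and Nup160 and Nup210l, with no region, lay outside the rule.

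The centres of the members' regions lay mainly upstream of the start, as did most of those of open protein-coding genes. The members' highest regions had a median width of 240 bp in replicate 1 and 220 bp in replicate 2, against 220 and 240 bp over all promoter regions and 240 and 260 bp over the highest regions of open protein-coding genes. The centre lay at a median of -55.5 and -46.5 bp from the nearest annotated start, where negative is upstream, against -36.5 and -28.5 bp for open protein-coding genes. It was upstream in 22 and 23 of 27 members, and the region held the chosen start, the one nearest the region of replicate 1, in 22 and 20. These counts were not made for open protein-coding genes. The upper quartile of the centre was 3.5 and 16.5 bp for those genes and -18.5 and -19.5 bp for the members. Nup98 lay farthest upstream, with its centre at -304.5 bp in both libraries. More than 1 region near the starts was found for 14 and 13 members, against 50.2% and 56.6% of open protein-coding genes.

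Every highest region of the 27 open members held a footprint, in both libraries. Of all promoter regions 84.7% and 85.0% did, and of the highest regions of open protein-coding genes 99.0% and 99.4%, so the full count follows from taking the highest region. The median number was 4 and 5 footprints, the same as for open protein-coding genes. Where the highest regions of both libraries overlapped, the members had 107 footprints in replicate 1, of which 88 (82.2%) overlapped a footprint of replicate 2. Of the 127 there in replicate 2, 90 (70.9%) overlapped one of replicate 1. Over the open protein-coding genes the shares were 73.3% and 66.1%.

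**Figure D2:**
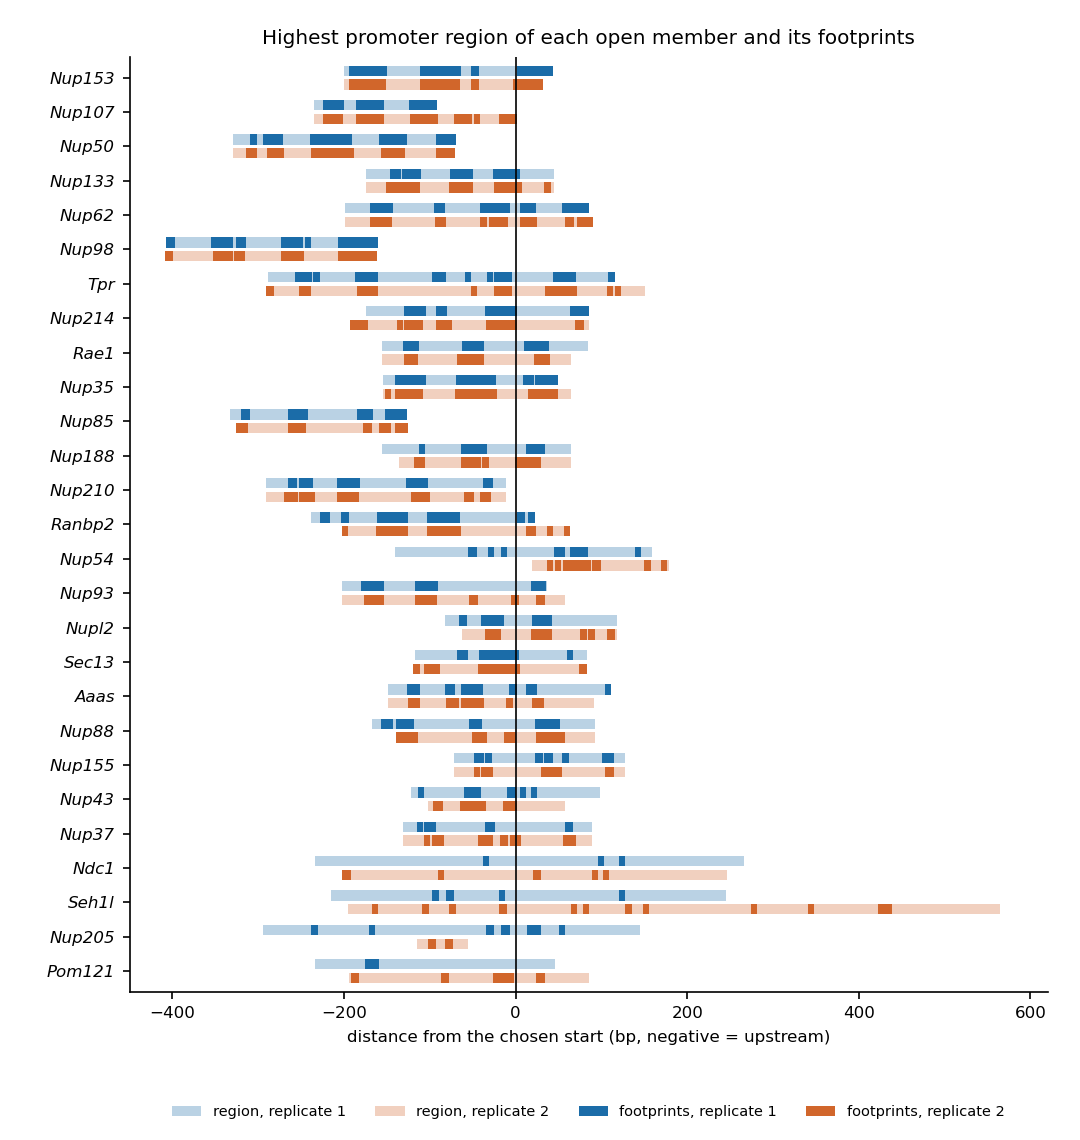
Highest promoter region (pale bars) and its footprints (dark bars) of the 27 open nuclear pore genes, by distance in bp from the start nearest the region of replicate 1, with replicate 1 in blue above replicate 2 in orange. Genes run from the highest mean percentile (Nup153) to the lowest (Pom121). Most regions lie just upstream of the start or over it, and those of Ndc1 and Seh1l are wide.

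Per-base false discovery rates were also read around the chosen start of each gene. They come from the same cuts as the regions, and the start is the one nearest the region of replicate 1, so they are no independent support. Within 500 bp of the start, a median of 673 of 1001 bases in replicate 1 and 767 in replicate 2 had a false discovery rate of 0.001 or lower over the 29 members (mean 720 ± 66.5, SD, n = 2). The medians were 683 and 779 over the open members, against 590 and 751 over open protein-coding genes. Nup62, Nup98, Nup210, Tpr and Ranbp2 had all 1001 bases at that level in both libraries. At Nup160 and Nup210l the count was 0. In the 20 bp bins beside the start, 100% of the open members' bases passed, against 86.9% to 92.5% for open protein-coding genes. In the bin 490 bp downstream the members were at 33.3% and 41.1%, against 27.6% and 50.7%.

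**Figure D3:**
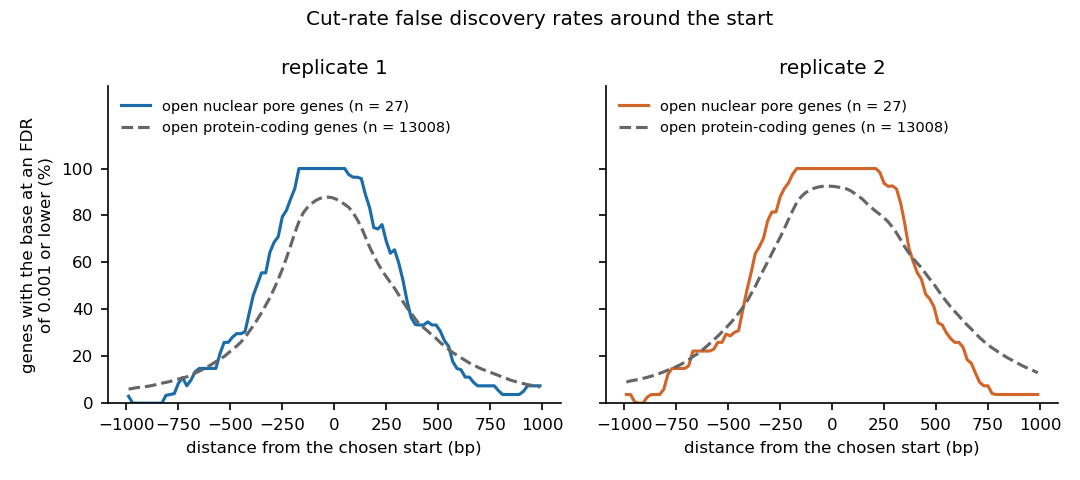
Percent of genes whose base had a cut-rate false discovery rate of 0.001 or lower, by distance from the start in bp, for the 27 open nuclear pore genes (solid) and 13008 protein-coding genes open in both libraries (dashed), in each replicate. The members reach 100% around the start, and in replicate 2 they lie below the dashed line 490 bp downstream.

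Nup160 was closed at its annotated start but open inside the gene. Its outermost start, at position 90677215 of chromosome 2 on the plus strand, had 0 bases within 500 bp at a false discovery rate of 0.05 or lower in either library. RefSeq places its start at the same base. A region lay 2026 bp downstream in replicate 1 (chr2:90679241-90679460) and 2006 bp downstream in replicate 2 (chr2:90679221-90679460). Its heights were 2.77 and 3.83, which would stand at percentiles 74.7 and 82.1 among promoter regions, and it held 5 and 4 footprints. The height would place Nup160 in the middle of the outer ring genes, below Sec13 and above Nup37 and Nup43 in both libraries. The region lies in exon 2 (90679014 to 90679508), over the end of the annotated 5′ UTR and the start codon at 90679409 to 90679411. Within 500 bp of the region's centre in replicate 1, the GC content was 58.9% and the CpG observed over expected ratio 0.857. Around the annotated start these were 46.6% and 0.185. No annotated start lies within 1000 bp of the region. It was counted as a promoter region when the distance was widened to 2500 bp.

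The following 2 stretches of that region lay inside footprints of both libraries. The first is shown because it holds the ETS letters discussed below, and the second because it holds the start codon. They lie at chr2:90679335-90679358 and chr2:90679407-90679424 on the plus strand.

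Nup160 upstream stretch: CGCCACACCCCCGGAAGTGACGAG
Nup160 start codon stretch: AGATGGCGGCGGCGGGAT

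**Figure D4:**
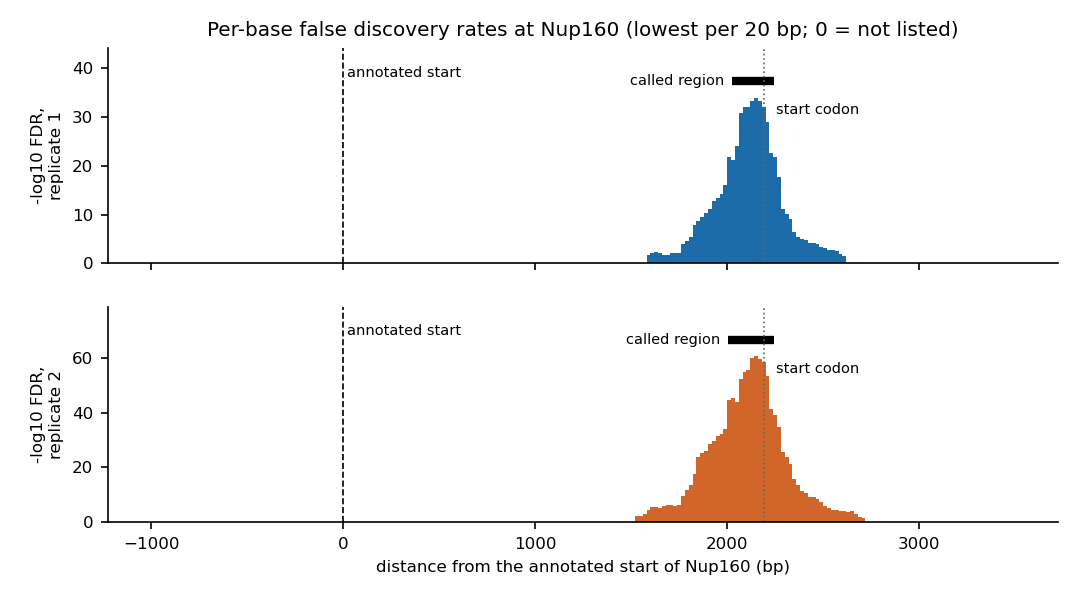
The lowest cut-rate false discovery rate per 20 bp at Nup160, as -log10, by distance from its annotated start in bp, in both replicates; 0 stands for bases not listed. The black bar is the called region, 2026 and 2006 bp downstream of the start, where both libraries peak, and no base is listed within 500 bp of the annotated start (dashed line).

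Nup210l differed from Nup160. No region of replicate 1 overlapped the gene in the shorter list. In replicate 2 a low region (height 0.557) lay 14394 bp downstream of the start, on chromosome 3 from 90118526 to 90118606. The longer list had a region at that place in replicate 1, with a height of 0.528. CpG observed over expected around its start was 0.401. Nup210, its relative, had heights of 4.04 and 6.10.

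Several features were not used to choose the genes. CpG observed over expected within 500 bp of the start had a median of 0.834 over the 29 members and 0.839 over the 27 open ones. The medians were 0.739 over open protein-coding genes and 0.588 over all protein-coding genes. It was at least 0.6, a usual limit for CpG islands, in 26 of 29 members, against 75.5% of open protein-coding genes and 49.0% of all. The 3 below were Nup35 (0.365), Nup160 (0.185) and Nup210l (0.401). Nup35 was open, with heights of 5.24 and 6.21, at a start poor in CpG. The median GC content was 59.5% for the members and 59.5% for open protein-coding genes. The members thus lay above open genes in CpG but not in GC, without a test of either.

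Some members share their promoter with a neighbour. A start of another gene on the opposite strand lay within 1000 bp in 9 of the 29 members, against 22.7% of protein-coding genes and 33.2% of those open in both libraries. In all 9 it lay within 300 bp, as it did in 16.8% of protein-coding genes. Within 1000 bp the share of members was close to that of open genes. The partner was protein-coding in 6 of 29, against 12.3% of protein-coding genes. For the 300 bp and the protein-coding partner counts the share among open genes was not computed, so no excess is read from them. Pgap2 lay 32 bp from Nup98, Parpbp 51 bp from Nup37, Dolk 63 bp from Nup188, Odr4 76 bp from Tpr, Atf5 191 bp from Nup62 and Rpain 240 bp from Nup88. Noncoding partners were Gm26910 at Seh1l (19 bp), Gm36246 at Aaas (56 bp) and Gm45890 at Nup133 (155 bp). A start of Dusp19 on the same strand lay inside the region of Nup35. The partner's start lay outside the called region at Nup62 and Nup88. At the others it lay inside, and the height there cannot be assigned to the pore gene or its neighbour.

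Regions away from promoters were also counted. Distal regions, over 1000 bp from any start, were counted over each gene with 10 kb added at both ends, and those found in both libraries were called shared. The 29 members had 20 shared distal regions in all. At least 1 was present for 12 members and none for 17. The median was 0, against 1 for open protein-coding genes and 0 for all, of which 44.1% had at least 1. The median locus was 62.1 kb for members and 37.4 kb for all protein-coding genes. Nup62 and Ndc1 had the most, with 3 each. For Nup62 all 3 lay in the gene body. Nup153 and Nup107, with the highest promoters, had 0. The count depends on the libraries: replicate 2 alone had 40 regions in these loci and replicate 1 alone 23.

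Motif letters were counted on both strands in the window from 250 bases before to 50 after the chosen start, for 13 motifs. A match is a description and shows no bound factor. The YY1 letters AAGATGGCG were in 4 of 29 members (13.8%), namely Nup188, Nup205, Nup88 and Nup50, against 2.06% of all protein-coding genes and 3.29% of open ones. The ETS letters CCGGAAGT were in 5 (17.2%), namely Rae1, Nup54, Sec13, Nup155 and Aaas, against 5.33% and 8.45%. The CRE letters TGACGTCA, the site of the CREB family, were in 3 (10.3%) against 2.72% and 3.91%. The NRF1 core GCATGCGC was in 3 against 4.13% and 5.86%. Counts of 3 to 5 genes are too few to set the members apart.

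The remaining letters varied against their background. The SP letters GGGCGG were in 18 members (62.1%), against 46.7% of all and 66.2% of open protein-coding genes. The NFY letters CCAAT were in 12 (41.4%) against 39.1% and 39.4%. The general E-box CACGTG was in 5 (17.2%) against 7.90% and 10.3%. The E2F letters GGCGGGAA were in 2 (6.90%) against 3.10% and 4.49%, and 1 of those matches overlapped an SP match. The neuronal E-box CAGATG was in 3 (10.3%) against 14.4% and 10.8%. The TATA letters TATAAA were in 3 (10.3%) against 11.8% and 5.91%. These were both closed members, Nup160 and Nup210l, and Ranbp2. The AP-1 letters TGANTCA, the ZBTB33 core TCTCGCGA and the ZNF143 core TACAATTCC were in 0. Their shares among all protein-coding genes were 6.50%, 1.55% and 0.533%.

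**Figure D5:**
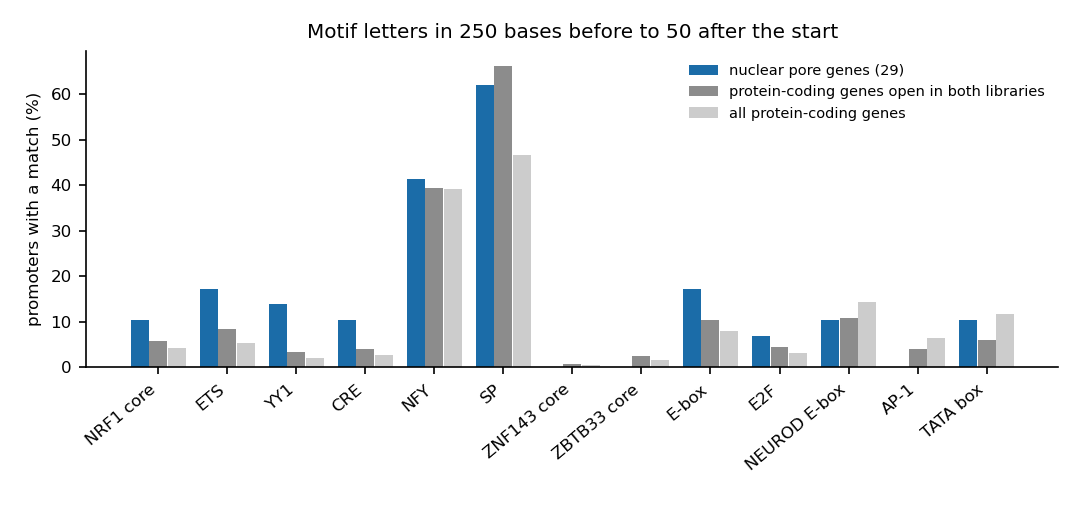
Percent of promoters (250 bases before to 50 after the start) with a match to each of 13 motifs, for the 29 nuclear pore genes (blue), protein-coding genes open in both libraries (dark grey) and all protein-coding genes (light grey). SP and NFY bars are near those of open genes, and the bars for YY1 and ETS rest on 4 and 5 members.

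Footprints lay over some of these letters in both libraries. Within the called regions the CRE letters occurred at 5 places in 4 members, 2 of them in Nup133 and 1 each in Nup214, Nupl2 and Nup98. All 5 overlapped a footprint in each library, against 89.5% and 89.7% of such matches in open protein-coding genes. Both Nup133 places stand in capitals in its sequence above, from positions 52 and 109, each counted from 1 at the 5′ end. The NRF1 core matched at Nup50 and Nup85 in both libraries' regions, and its 4 matches in replicate 1 were all in footprints, against 84.3% of such matches in open protein-coding genes. These 4 are 2 sites, since the palindrome is matched on either strand, and the Nup50 site stands in capitals from position 181. The wider replicate 2 regions added Nup107, in a footprint, and Seh1l, not in one. In Nup107 the SP letters from positions 58 and 70 were in capitals.

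For other letters the footprints differed between the libraries. ETS matches in called regions were in footprints at 3 of 5 places in replicate 1 and 1 of 4 in replicate 2, against 50.9% and 53.9% in open protein-coding genes. Only that of Nup155 was covered in both. The Nup54 match, covered in replicate 1, lay outside the called region of replicate 2 and was not assessed there. The first Nup160 stretch printed above also holds the ETS letters, in footprints of both libraries. YY1 letters were in footprints at 2 of 4 places in replicate 1 and 1 of 3 in replicate 2, against 53.7% and 56.9%. They were covered in both libraries at Nup88 alone, and at Nup188 neither of its 2 places was covered. The Nup205 match, covered in replicate 1, likewise lay outside the called region of replicate 2. A looser ZNF143 form, CTACANNTC, was tried after the values were seen. It was in 3 members, Nup153, Ndc1 and Tpr, against 5.47% of all protein-coding genes and 6.90% of open ones. It was in a footprint of both libraries at Nup153, where it stands in capitals.

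The other genes of nuclear transport were also mostly open, with lower regions than the members. Of 41 importins, exportins, Ran cycle, mRNA export and remaining pore genes, 40 were open in both libraries, against 59.3% of protein-coding genes. Their median percentile was 79.8 in replicate 1 and 82.8 in replicate 2. The members had 89.4 and 90.3, and open protein-coding genes 72.6 and 75.6. Above the 75th percentile were 26 of 40 and 33 of 41, against 46.2% and 51.0% of open protein-coding genes. The 6 Ran cycle genes had group medians of 88.2 and 93.7, the 7 exportins 84.9 and 90.4, the 17 importins 79.7 and 81.0, and the 7 mRNA export genes 66.3 and 76.6. The Ran cycle and exportin medians were thus below that of the members in replicate 1 and above it in replicate 2. By mean percentile over the libraries the highest was Xpo1, the main export receptor for proteins, with heights of 8.76 and 10.3, close to those of Nup50. Next came Nxt1, a cofactor of mRNA export (7.39 and 8.34), and Ranbp3, which assists export by Xpo1 (6.48 and 7.31). In replicate 1 alone Ahctf1, which brings the Y complex to chromatin, stood above Ranbp3, with 6.80 there and 6.23 in replicate 2. Nup62cl, a relative of Nup62, was open in replicate 2 only, with a height of 0.453. Pom121l2, a relative of Pom121, had 0.534 and 0.666, below the median of all promoter regions in both libraries.

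The tissue label was checked against marker genes. Of 8 genes of hippocampal and excitatory neurons, 7 were open in replicate 1 and 8 in replicate 2. Slc17a7 was the one open in replicate 2 only. Of all protein-coding genes, 59.6% and 64.0% were open. The open neuronal genes had median percentiles of 65.3 and 67.0, below the 72.6 and 75.6 of open protein-coding genes. Of the markers of other tissues, the 4 of cerebellum and hindbrain, 2 of liver and 1 of muscle were closed in both. Astrocyte genes were open for 2 of 3 in each library, but only Gfap was open in both, at percentiles 77.4 and 85.3. Aqp4, open in replicate 1 only, stood at 25.9, and Slc1a3, open in replicate 2 only, at 23.2. Oligodendrocyte genes were open for 1 of 3 and microglial genes for 0 and 1 of 3. Endothelial genes were open for 0 of 2. These counts are for the shorter list. In the longer list Cldn5 (endothelium), Aqp4 and Slc1a3 were open in both libraries. Pecam1 (endothelium) and Cx3cr1 (microglia) were open there in replicate 1, and Pax2 (cerebellum and hindbrain) in replicate 2. The sources give no read depth. Replicate 2 had more regions, 74278 against 54546, and more footprints, 345745 against 226223.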

How the data were processed

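DNase-seq was measured in 2 hippocampus samples of 1 group. The authors deposited, for each sample, a shorter and a longer list of accessible regions, a list of footprints, and per-base false discovery rates of the cut rate, all on mm10 per the labels. The region height is a signal value deposited by the authors. For the region caller, its version, threshold and scaling: not given in the sources used here. Per-base false discovery rates are the authors' own adjusted p-values, used as deposited, and the deposited footprint p-value is 0.01 in every row, a limit and not a measurement. Read depth is likewise not given, so no counting interval could be set.

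Starts and genes came from GENCODE M21 and sequences from the RefSeq copy of GRCm38. Regions of the shorter list within 1000 bp of any start were promoter regions. A gene was open where it had one, and took the value of its highest. Percentiles ranked heights among promoter regions of the same library. Regions overlapping by 1 bp or more were shared. A motif match or footprint counted where they overlapped by at least 1 base. Analysis used Python 3.11.15, numpy 2.4.6, pandas 2.3.3 and BLAST 2.17.0, and was tested on simulated data.

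The members and gene lists were chosen with earlier results of these data known, so no test was made. With 2 samples of 1 group no comparison of conditions exists. Values are named for the 6 highest and 6 lowest members, closed members, those with most distal regions, at least 1 per subcomplex, pathway genes not open in both libraries and the 3 highest of those. Other members, and Pom121l2 for its low value, were named after their values were seen. Alternatives were the longer list, other promoter distances, start choices, rankings, thresholds, overlaps and each replicate alone.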

Additional observations from a re-analysis of the deposited data

How the results depend on the processing

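The number of members open in both libraries was 27 with the longer list, against 64.4% of protein-coding genes, and 27 at 500 bp, against 57.7%. It was 27 with the outermost start only, against 54.7%, and with the stronger 50% of regions, against 50.7%. Each library alone also held 27, against 59.6% and 64.0% in replicates 1 and 2. At 2500 bp, where Nup160 joined, the number was 28, against 62.1%. With Nupl1 added it was 28. The median percentile of 89.8 moved to 92.6 with the longer list, 88.5 at 500 bp, 90.7 at 2500 bp, 95.2 ranked against all regions, 89.1 against promoter regions of protein-coding genes, and 88.8 with the nearest region in place of the highest. Each replicate alone gave 89.4 and 90.3. The median open protein-coding gene stood at 72.6 and 75.6 in replicates 1 and 2, and it moved with the setting too. It was at 78.3 and 80.2 with the longer list, 69.6 and 72.2 at 500 bp, and 75.3 and 78.7 at 2500 bp. Median bases rose from 720 to 886.5 at a false discovery rate of 0.05, and ranged from 673 to 767 over single libraries. Shared distal regions went from 20 to 11 in the gene body alone and 16 at 50% reciprocal overlap. Single libraries held 23 and 40. TATA letters were in 1 member, Ranbp2, in the called regions of replicate 1, not 3. The others, Nup160 and Nup210l, have no called promoter region and could not be counted there. The looser ZNF143 letters were in 3 members, not 0. Of 32 alternatives for the 7 main results, 23 kept the value within the replicate spread or, for counts, within 1.5 times. Part of this was fixed in advance. A median in 1 of 2 replicates always lies within their SD of the mean, and a count of 27 of 29 cannot rise 1.5 times. Apart from single replicates, the median percentile kept its value only with the outermost start. No paired analysis was possible because there is only 1 group. With 2 libraries whose depth the sources do not give, no counting error could be set for any region.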
